A study of Mus musculus with 8 samples.

Results

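Aquaporin-4 (Aqp4), the water channel of astrocyte endfeet, was examined with 8 genes whose products anchor it at the blood vessel or surround it there. The 9 genes were fixed by name, namely Aqp4, Dag1, Dmd, Dtna, Utrn, Sntb1, Mlc1, Hepacam and Agrn, out of 39179 genes in the count tables, and all 9 had enough reads to be tested. The question was whether Aqp4 changed alone or together with its anchoring proteins when astrocytes lost Kir4.1, the inward rectifier potassium channel encoded by Kcnj10. The labels describe 8 RNA-seq libraries of Aldh1l1-GFP+ cells sorted from mouse spinal cord at postnatal days 12 to 14, of mixed Swiss-Webster strain, with meninges removed before papain dissociation. Of these, 4 carry numbers S1, S2, S6 and S7 and come from cre-negative mice labelled wild-type (control). The other 4, numbered S3, S4, S5 and S8, come from mice carrying Aldh1l1-cre and floxed Kir4.1 alleles on both chromosomes (Kir4.1 fl/fl, conditional knockout, cKO). All animals carry the Aldh1l1-GFP reporter used for sorting, and whether the control mice also carry floxed alleles is not given in the sources used here. The labels call the samples biological replicates without naming animals or batches.

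An endfoot is the process by which an astrocyte contacts the basal lamina around a blood vessel or under the pia. There a transmembrane receptor, dystroglycan (Dag1), binds laminin, perlecan and agrin outside the cell and dystrophin (Dmd) or its homologue utrophin (Utrn) inside it. Dystrophin in turn carries dystrobrevin (Dtna) and the syntrophins, whose PDZ domains tether Aqp4. Kir4.1 is concentrated in the same membrane, and Mlc1 and its chaperone Hepacam form a separate complex at astrocyte contacts and endfeet.

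Reads assigned to genes numbered 13892736 to 25065686 per library, and 17312 to 20470 genes were detected. Levels are given as CPM, counts scaled to the reads assigned to genes in each library, with the trimmed mean of M-values (TMM). Where 8 values are listed, the controls stand in the order S1, S2, S6, S7 and the cKO libraries in the order S3, S4, S5, S8. The targeted gene separated the groups: Kcnj10 stood at 1181, 2306, 1856 and 1937 CPM in the controls and at 35.6, 27.2, 37.6 and 35.4 CPM in the cKO libraries. The 10 astrocyte markers summed to 14608 to 21632 CPM in controls and 15134 to 18365 CPM in cKO libraries. Of these markers 1 passed the test. This was Aldh1l1 itself, the gene whose regulatory sequence drives both the cre and the sorting reporter, at a mean of 139 CPM in controls and 282 CPM in cKO (log2 fold change 1.01, edgeR adjusted p = 0.0179), a gene named after its values were seen. The call was lost without control S2 (0.0655), control S6 (0.0705) or cKO S4 (0.0618) and in the 3 FPKM fits (0.122 to 0.135). Its part in the values of the 9 genes was not tested. Xist, an RNA made from the inactive X chromosome of female cells, was below 1 CPM in 1 control (S2) and in 2 cKO libraries (S3 and S5), and at 1817 CPM or more in the other 5, so the groups differ in their mix of Xist-positive libraries.

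Aqp4 rose in the cKO. Its gene lies on chromosome 18 (GRCm38, 15389496 to 15410982, minus strand). It was measured at 2454, 1993, 1588 and 1994 CPM in the controls and at 3373, 5268, 4113 and 4390 CPM in the cKO libraries. The lowest cKO library, S3, lay above the highest control, S1, so the groups did not overlap. Group means were 2007 ± 354 CPM for controls and 4286 ± 783 CPM for cKO (SD, n = 4 each), which edgeR fitted as a log2 fold change of 1.09 with an SE of 0.18 and a 95% interval of 0.70 to 1.49, or 2.14-fold. The edgeR quasi-likelihood test gave an adjusted p of 0.0243 over the 14757 genes tested, and an exact two-sided permutation test over the libraries gave p = 0.0286, the smallest that 4 against 4 allows. Aqp4 transcripts made up 0.194% of all gene reads in controls and 0.440% in cKO. More RNA per cell and a larger share of Aqp4-rich cells among those sorted cannot be told apart in such bulk libraries.

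No other gene of the 9 passed the test. The call rate over all genes was 0.318% in either direction, 0.203% for genes higher in the cKO and 0.115% for genes lower, with 30 genes higher and 17 lower. When library totals replaced TMM, the median log2 fold change over all genes moved from -0.017 to 0.091 and the split became 48 higher and 14 lower. The direction of Aqp4 and of 7 of the other 8 genes was the same in all alternatives run, and Agrn is the exception described below. Aqp4's own call was less stable than its size. Leaving out 1 library at a time gave log2 fold changes of 0.98 to 1.20. The adjusted p remained below 0.05 without control S1 (0.0469) or cKO S3 (0.0217) and lay above it without control S2 (0.0841), S6 (0.0705) or S7 (0.0677) and without cKO S4 (0.105), S5 (0.0722) or S8 (0.0748). With deposited FPKM (fragments per kilobase, scaled to depth) in place of counts, limma gave a log2 fold change of 1.13 with an adjusted p of 0.159.

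**Figure D1:**
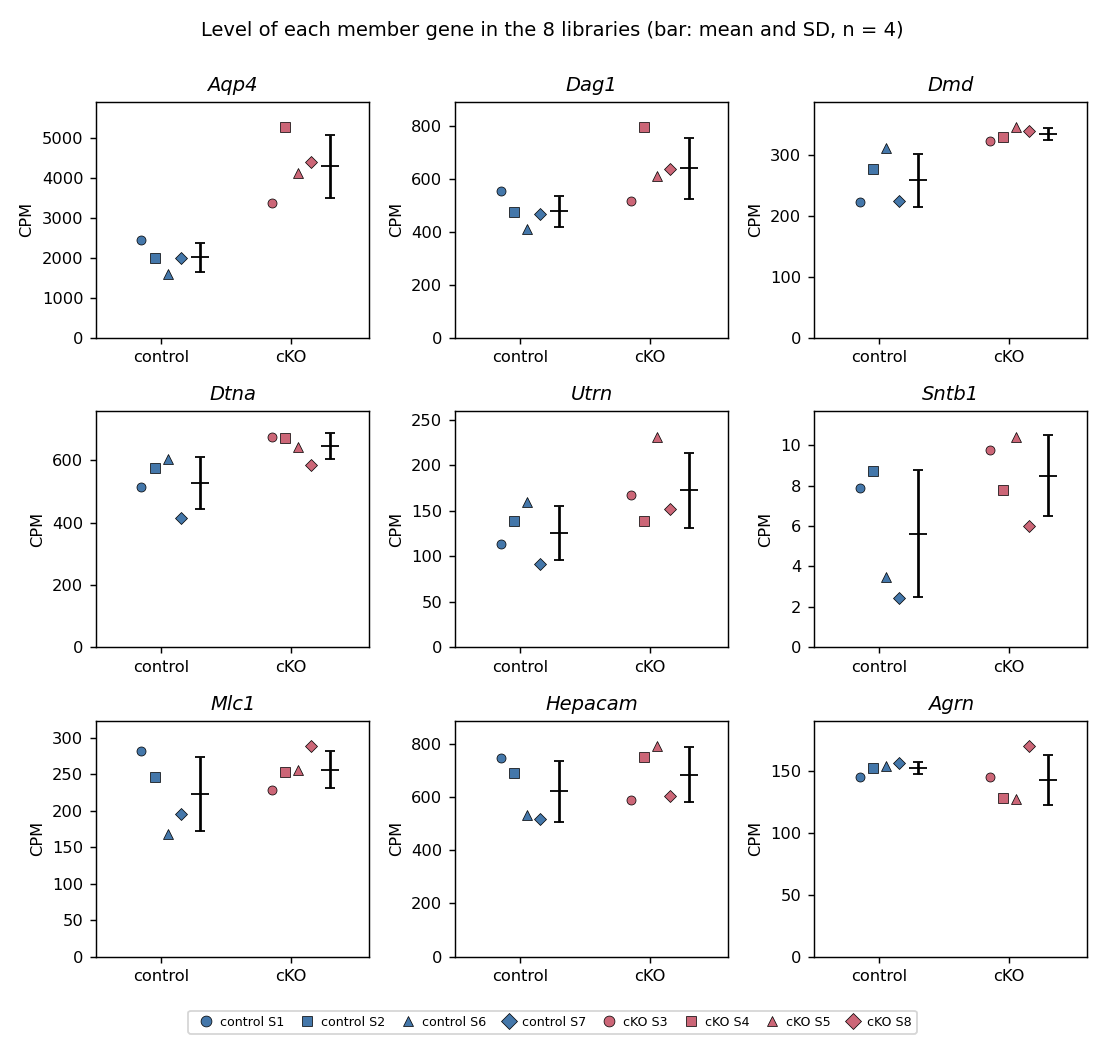
Level of each of the 9 genes in CPM (vertical axes from 0) in the 4 control libraries (blue) and the 4 cKO libraries (red), with the mean and SD of each group in black. All 4 cKO points lie above all 4 control points for Aqp4 and Dmd, and the groups overlap for the other 7 genes.

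The receptor and scaffold genes that hold Aqp4 in place had smaller log2 fold changes than Aqp4, from 0.29 for Dtna to 0.60 for Sntb1, and none passed. Of the 9 genes 4, namely Aqp4, Dag1, Dmd and Utrn, had an unadjusted p under 0.05, all with a higher mean in cKO, where 5.03% of all genes did so in that direction. A total of 8 of the 9 had a log2 fold change above 0, against 48.4% of all genes, with a median of 0.37 against -0.017. In 2 of the 9, Aqp4 and Dmd, every cKO library was above every control, which held for 3.39% of all genes. These counts include Aqp4 itself, and the 9 genes were chosen with earlier results of these data known.

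Dag1, which encodes both chains of dystroglycan, lies on chromosome 9 (108204634 to 108263958, minus strand). Its level was 553, 476, 412 and 467 CPM in the controls and 517, 794, 611 and 637 CPM in the cKO libraries. Only cKO S3 fell inside the control range, below control S1. The log2 fold change was 0.42 with an SE of 0.17 and a 95% interval of 0.063 to 0.79 (edgeR unadjusted p = 0.0246, adjusted p = 0.414; exact permutation p = 0.0571).

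Dmd, on the X chromosome (82948870 to 85206141, plus strand), encodes dystrophin. It was at 222, 276, 311 and 223 CPM in the controls and at 323, 329, 345 and 339 CPM in the cKO libraries. The cKO libraries lay close together, with an SD of 10.1 CPM against 43.3 CPM in controls, and control S6 was the only control near them. The log2 fold change was 0.37 with a 95% interval of 0.042 to 0.70 (edgeR unadjusted p = 0.0303, adjusted p = 0.437; exact permutation p = 0.0286). On deposited FPKM the same comparison came out larger, at 0.70 on the log2(FPKM + 1) scale, and again did not pass. With Xist as a covariate, since Dmd is X-linked, the log2 fold change was 0.36 (edgeR adjusted p = 0.607).

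Utrn, the dystrophin homologue, lies on chromosome 10 (12382188 to 12869365, minus strand). Its control mean was 11.3 FPKM against 107 FPKM for Dmd, a gap that depends on the lengths assigned to both genes, described below. Its level was 113, 138, 159 and 91.1 CPM in the controls and 167, 139, 231 and 151 CPM in the cKO libraries. The groups overlapped, with 2 of the 4 cKO libraries, S4 and S8, below control S6. Utrn had a log2 fold change of 0.46 with a 95% interval of 0.0056 to 0.91 (edgeR unadjusted p = 0.0476, adjusted p = 0.502).

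Dtna, on chromosome 18 (23415135 to 23659715, plus strand), encodes alpha-dystrobrevin, which binds dystrophin and recruits syntrophins. It was at 516, 574, 605 and 415 CPM in the controls and at 676, 673, 642 and 586 CPM in the cKO libraries. cKO S8 alone lay inside the control range, below control S6. Dtna had a log2 fold change of 0.29 with a 95% interval of -0.047 to 0.63 (edgeR adjusted p = 0.577; exact permutation p = 0.0571).

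Sntb1, on chromosome 15 (55636388 to 55906949, minus strand), encodes beta-1-syntrophin, an adaptor of the family that carries the PDZ domain. It had the lowest FPKM of the 9, and was at 7.86, 8.73, 3.46 and 2.42 CPM in the controls and 9.76, 7.76, 10.4 and 5.99 CPM in the cKO libraries. Those levels rest on 51 to 191 reads per library, and the log2 fold change of 0.60 had a 95% interval of -0.37 to 1.57 (edgeR adjusted p = 0.710). A difference of the size seen for Aqp4 lies inside that interval, as does no difference.

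The genes of the neighbouring complex and of the extracellular ligand had the smallest differences. Mlc1, the membrane protein mutated in megalencephalic leukoencephalopathy, lies on chromosome 15 (88955884 to 88979007, minus strand). It was at 282, 246, 169 and 195 CPM in the controls and 228, 253, 256 and 289 CPM in the cKO libraries. Control S1 exceeded 3 of the 4 cKO libraries, and the log2 fold change was 0.20 with a 95% interval of -0.18 to 0.59 (edgeR adjusted p = 0.761).

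Hepacam, the adhesion molecule that brings Mlc1 to cell contacts, lies on chromosome 9 (37367351 to 37386575, plus strand). It was at 746, 689, 531 and 519 CPM in the controls and at 590, 752, 793 and 604 CPM in the cKO libraries. In each group 2 libraries were high and the others low, so the groups overlapped almost fully. The log2 fold change was 0.14 with a 95% interval of -0.24 to 0.52 (edgeR adjusted p = 0.847).

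Agrn, on chromosome 4 (156165290 to 156197488, minus strand), encodes agrin, a heparan sulphate proteoglycan that binds dystroglycan in the basal lamina. It was the only gene of the 9 with a lower mean in cKO, at 145, 153, 154 and 156 CPM in the controls and 145, 128, 127 and 170 CPM in the cKO libraries. cKO S8 was the highest library of all 8, and cKO S4 and S5 were the lowest. The log2 fold change was -0.093 with a 95% interval of -0.41 to 0.23 (edgeR adjusted p = 0.883), and its sign turned with library totals as scaling (0.00897) and on FPKM (0.021). The interval ends below the smallest Aqp4 change in its own interval, 0.70.

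In the authors' deposited table, too, Aqp4 alone of the 9 had an adjusted p under 0.05, with a log2 fold change of 1.02 and an adjusted p of 7.71e-06. The adjusted p of the other 8 in the authors' deposited table ran from 0.219 for Dmd to 0.853 for Agrn, while 2.87% of the 12314 genes with an adjusted p were called there and 1.49% were called higher. Aqp4, Dmd, Dag1 and Utrn had an unadjusted p under 0.05 in the authors' deposited table, as did 8.29% of all genes with a p there.

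Whether Aqp4 moved apart from its partners was tested directly, by the ratio of Aqp4 CPM to the CPM of each partner within the same library. For 6 of the 8 partners the ratio was higher in cKO at an adjusted p under 0.05 (limma on the log2 ratio, adjusted over 14756 genes), against 58.8% of all genes, which were lower relative to Aqp4 by the same rule (59.1% in either direction). All the ratios share the Aqp4 values and are not independent of each other. Aqp4 itself did not overlap between the groups, so a ratio without overlap need not come from the partner. The share of all genes with such a ratio was not computed. A share of 6 in 8 lies near that background, so the count sets the partners apart from Aqp4 no more than it does most genes.

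The Aqp4 to Dag1 ratio was the tightest. It was 4.44, 4.19, 3.86 and 4.26 in the controls and 6.52, 6.63, 6.73 and 6.89 in the cKO libraries. Every cKO library lay above every control, with a mean of 4.19 ± 0.24 (SD, n = 4) against 6.69 ± 0.16 (SD, n = 4). The log2 ratio was higher by 0.68 with a 95% interval of 0.29 to 1.07 (limma adjusted p = 0.00542). Dag1 thus kept a nearly constant proportion to Aqp4 inside each group and another proportion in the other group.

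The ratio of Aqp4 to Dtna went from 3.92 ± 1.06 to 6.68 ± 1.28 (SD, n = 4 each), higher by 0.79 in log2 (limma adjusted p = 0.00698) with no overlap, though control S7 at 4.81 and cKO S3 at 4.99 were close. The ratio to Dmd went from 8.08 ± 2.53 to 12.8 ± 2.36 (SD, n = 4 each), higher by 0.71 (limma adjusted p = 0.0161). Its groups overlapped, since control S1 at 11.1 exceeded cKO S3 at 10.5, and the call was lost without control S6 (limma adjusted p = 0.0688) or cKO S4 (limma adjusted p = 0.0624).

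The ratios to the genes outside the dystrophin scaffold changed most. Aqp4 to Mlc1 went from 9.11 ± 0.91 to 16.7 ± 2.79, higher by 0.87 in log2 (n = 4 each, limma adjusted p = 0.00223). Aqp4 to Hepacam went from 3.25 ± 0.43 to 6.30 ± 1 (SD), higher by 0.95 (n = 4 each, limma adjusted p = 0.00120). Aqp4 to Agrn went from 13.2 ± 2.71 to 30.6 ± 8.00, higher by 1.20 (n = 4 each, limma adjusted p = 0.000835). In all 3 the groups did not overlap.

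For Utrn and Sntb1 a separate course from Aqp4 was not shown. The Aqp4 to Utrn ratio was 21.7, 14.4, 9.97 and 21.9 in the controls and 20.2, 37.9, 17.8 and 29.0 in the cKO libraries, and the groups overlapped. The log2 ratio was higher by 0.63 with a 95% interval of 0.056 to 1.21 (limma adjusted p = 0.0545), and it passed in 6 of the alternatives. For Sntb1 the log2 ratio was higher by 0.35 with a 95% interval of -0.66 to 1.36 (limma adjusted p = 0.528), which excludes neither an equal change nor a change as large as that of Aqp4 alone.

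**Figure D2:**
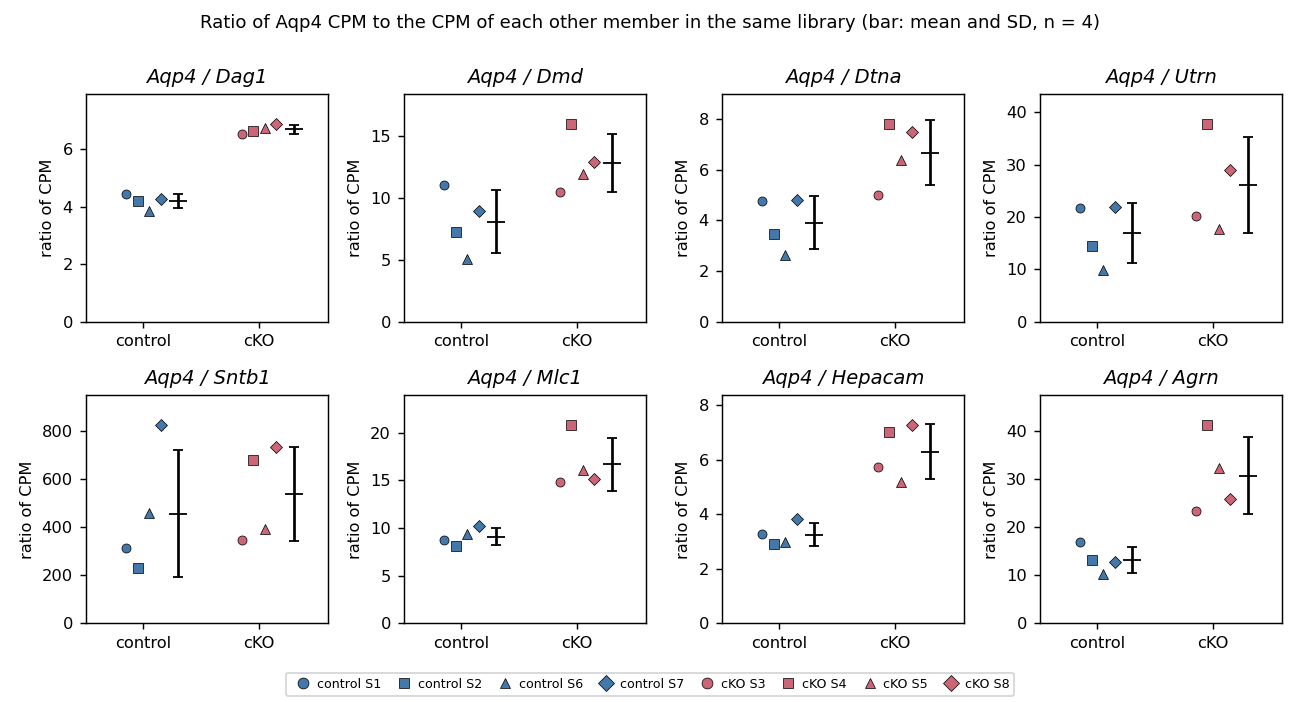
Ratio of Aqp4 CPM to the CPM of each of the 8 partners within each library (vertical axes from 0), with the mean and SD of each group of 4 in black. The groups are apart for Dag1, Dtna, Mlc1, Hepacam and Agrn and overlap for Dmd, Utrn and Sntb1. Aqp4 itself does not overlap between the groups, and the share of all genes with such a ratio was not computed.

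**Figure D3:**
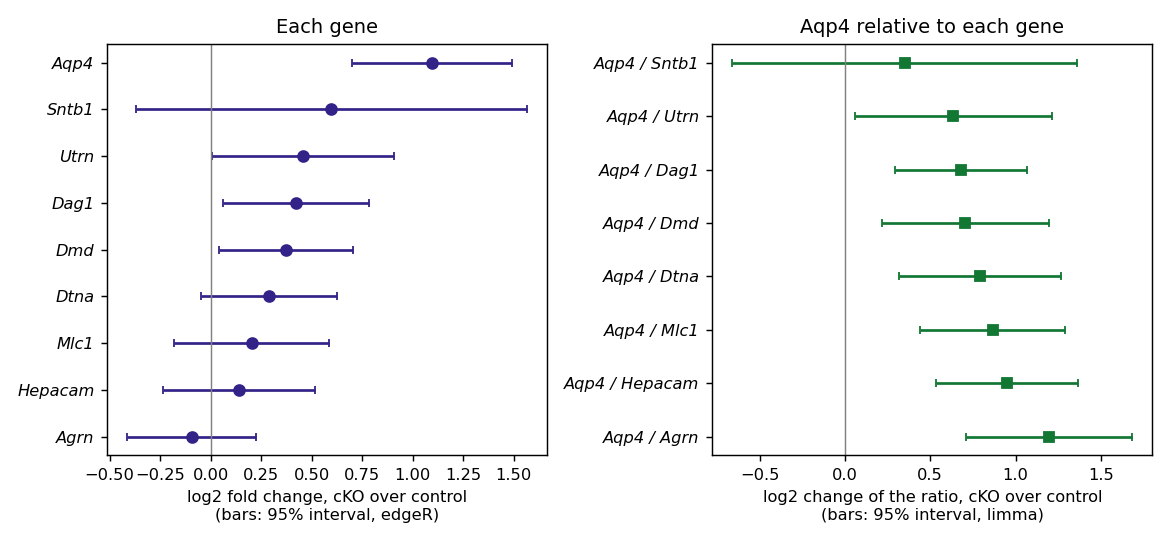
Left, log2 fold change of each gene, cKO over control, with its 95% interval from edgeR; right, log2 change of the ratio of Aqp4 to each partner with its 95% interval from limma. Aqp4 stands at 1.09 and the other 8 genes between -0.093 and 0.60, and the interval of the ratio includes 0 for Sntb1 only.

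Levels were compared between genes only per length, on the deposited FPKM. In controls the order was Aqp4 at 492 ± 80.9 FPKM (SD, n = 4), Hepacam at 245, Dtna at 147, Dag1 at 146, Mlc1 at 108, Dmd at 107, Agrn at 82.2, Utrn at 11.3 and Sntb1 at 3.36 FPKM. From Dtna down to Agrn the ranges of neighbours overlapped, so that part of the order is not resolved, while Aqp4, Hepacam, Utrn and Sntb1 each stood clear of their neighbours. In cKO, Aqp4 was at 1082 ± 191 FPKM (SD, n = 4), followed by Hepacam at 265, Dag1 at 194, Dtna at 181, Dmd at 176, Mlc1 at 123, Agrn at 81.1, Utrn at 15.6 and Sntb1 at 6.02 FPKM. Hepacam, Dag1, Dtna and Dmd overlapped in sequence there. By FPKM rank among the tested genes, Aqp4 stood 77th in controls and 37th in cKO, and Kcnj10 went from 421 to 5.83 FPKM.

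**Figure D4:**
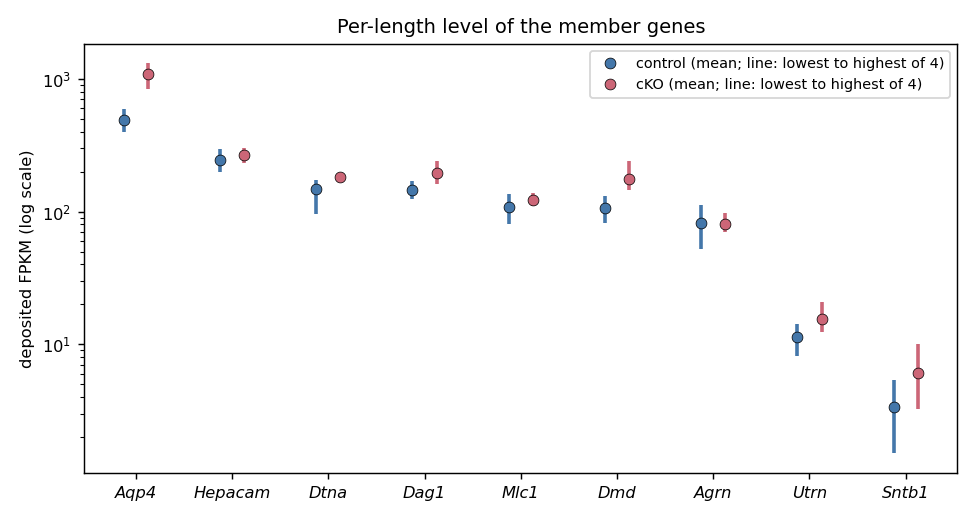
Deposited FPKM of the 9 genes on a log axis, as the mean of 4 control columns (blue) and 4 cKO columns (red), with a line from the lowest to the highest column. Aqp4 is the highest gene in both groups, and Utrn and Sntb1 are the lowest at 11.3 and 3.36 FPKM in controls.

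Dmd makes several proteins from separate starts. Full-length dystrophin comes from upstream starts, and the short product Dp71, the main dystrophin of glia, from a start near the far end of the gene. The annotation lists a coding transcript of 14910 bases in 79 exons (Dmd-203) and coding transcripts of 4438 bases in 18 exons (Dmd-201) and 1858 bases in 17 exons (Dmd-202) that begin at the downstream end. Counts per FPKM give the length that the authors' FPKM assigned to a gene. For Dmd this was 2909 bases, 19.5% of the longest coding transcript, where Aqp4 came to 5554 bases against 5054 annotated, Hepacam to 3557 against 3347 and Mlc1 to 2889 against 2801. For Dmd it was 3343 bases in controls and 2644 in cKO. This length depends on how the authors' FPKM shared reads among isoforms and is no count of reads over separate exons, which were not used here. Agrn, at 2508 bases or 34.5%, and Sntb1, at 2088 bases or 42.4%, were also far below their longest coding transcript. Utrn, at 15391 bases, was above its longest coding transcript of 12382 bases (124%). The FPKM levels of these genes relative to each other depend on those lengths.

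The bases before an upstream and the downstream Dmd start are printed because the length assigned to Dmd is far below that of its full-length transcript. The sequences before these starts also differ in composition. They are from RefSeq on GRCm38.p6, plus strand, 250 bases 5′ to 3′ ending just before the start site, from a table that held 6 of the 9 genes, all but Aqp4, Dtna and Sntb1. The upstream window is chrX:82948620-82948869 and the downstream window is chrX:85048045-85048294, and the starts lie 2099425 bases apart. Capitals mark matches on either strand. The GC box was searched as GGGCGG. The TATA box was searched as the letters TATAAA, and the CArG box by its name alone.
Dmd upstream: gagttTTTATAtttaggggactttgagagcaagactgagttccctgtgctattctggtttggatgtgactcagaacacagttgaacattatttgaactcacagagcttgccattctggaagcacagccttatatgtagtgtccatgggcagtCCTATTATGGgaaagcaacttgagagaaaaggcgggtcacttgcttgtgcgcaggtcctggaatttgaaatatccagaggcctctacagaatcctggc
Dmd downstream: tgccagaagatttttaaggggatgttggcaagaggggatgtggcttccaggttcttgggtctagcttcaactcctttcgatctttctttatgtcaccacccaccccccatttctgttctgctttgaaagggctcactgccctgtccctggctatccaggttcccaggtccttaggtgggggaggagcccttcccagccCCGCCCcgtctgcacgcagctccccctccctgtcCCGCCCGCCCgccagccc

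The upstream window had a GC content of 45.2% and 2 CpG dinucleotides, against medians of 52.4% and 6 over 32851 promoter windows of that length. It held a CArG box, the site bound by serum response factor in muscle genes, with its first base at -98, and a TATA match on the minus strand at -245. The downstream window had a GC content of 60% and 7 CpG, with 3 GC boxes on the minus strand at -52, -18 and -14, of which the last pair overlap. A GC box was present in 32.7% of all windows, a TATA match in 12.4% and a CArG box in 1.47%. These are matches of letters and were not tested as binding sites.

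Other genes of the same machinery were taken from 5 lists. The other dystrophin complex genes, namely the remaining syntrophins, dystrobrevin beta, Drp2, the sarcoglycans and sarcospan, had 11 of 13 tested and 0 called by edgeR. A single gene had an unadjusted p under 0.05, against 9.81% of all genes, and the median log2 fold change was -0.065. That gene was Drp2, dystrophin related protein 2, at 80.3, 72.9, 67.6 and 80.1 CPM in the controls and 111, 119, 126 and 120 CPM in the cKO libraries. All 4 cKO libraries were above all controls, as for 3.39% of all genes, with a log2 fold change of 0.66 (edgeR adjusted p = 0.0856). Drp2 was the single gene of this list called by DESeq2 (adjusted p = 0.000601), while limma-voom called 0. Over all genes DESeq2 called 384 of the 23932 with a p-value, which is the background for its calls in each list. Those 23932 may include genes without an adjusted p, so the share among genes that could be called may be higher. The others with the most reads were Sgcb, beta-sarcoglycan, with a log2 fold change of -0.065 that turned sign with library totals (0.043) and with Xist as a covariate (0.016) and without control S7 (0.13), and Dtnb at -0.26. Sgcd (-1.42, but -0.088 without control S6), Sntg1 (-1.19, but 0.50 without control S7) and Sgca (1.08) had the widest differences on a few CPM, and none passed.

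The enzymes that build the laminin-binding sugar of dystroglycan were all tested, 17 of 17, with 0 called by edgeR, DESeq2 or limma-voom. Their median was -0.11, and 1 had an unadjusted edgeR p under 0.05, against 9.81% of all genes. Among those with the most reads were the mannosyltransferases Pomt2 (-0.30) and Pomt1 (0.073, of the other sign without control S6, control S7 or cKO S4). Gmppb (0.62, but 0.078 without cKO S5) and Pomk (-0.54, but -0.17 without control S7) had wider differences, and none passed.

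The list of basal lamina genes held laminin chains, perlecan, nidogens and type IV collagens among others, not all of them ligands of dystroglycan. Its median log2 fold change was -0.57, the value of Nid1, with 13 of 15 genes tested. Of those 13, 3 lay above 0 and 0 were called by edgeR or limma-voom. An unadjusted edgeR p under 0.05 was seen for 3 of the 13, against 9.81% of all genes. Lama1 and Lama2 had every cKO library below every control, as did 434 of the 14757 genes tested. In either direction, 6.34% of all genes had groups that did not overlap. Lama1, the laminin alpha-1 chain, was at 5.13, 4.00, 7.09 and 6.25 CPM in the controls and 2.76, 2.22, 0.399 and 1.37 CPM in the cKO libraries (log2 fold change -1.73, edgeR adjusted p = 0.326). Lama2, the laminin alpha-2 chain of astrocyte and muscle basal laminae, was at 55.1, 50.6, 52.3 and 32.9 CPM in the controls and 26.5, 18.3, 32.7 and 26.4 CPM in the cKO libraries. Its log2 fold change was -0.88 (edgeR adjusted p = 0.185; DESeq2 called it as the only gene of the list), and control S7 and cKO S5 almost met. Lamb2, the beta-2 chain, stood at 0.56 (edgeR adjusted p = 0.466). Lama2 and Lamb2 were named after their values were seen. The collagens Col4a1 (-1.17, but -0.71 without control S7) and Col4a2 (-1.11), and Nid1 (-0.57), Lamc1 (-0.21) and Hspg2 (-0.44) did not pass, and Lamc1 turned sign without control S6.

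Markers of cells that make basal lamina were summed in the same libraries. The 6 fibroblast markers summed to 109 to 578 CPM in controls and 75.7 to 151 CPM in cKO, with 0 of 6 higher on average in cKO, and Dcn, Lum, Col3a1 and Slc6a13 at 0 in at least 1 library. Control S6 alone reached 578 CPM: without it the control mean of this sum was 160 CPM in place of 264 CPM, against 113 CPM in cKO. The 9 endothelial markers summed to 44.3 to 73.6 CPM in controls and 24.3 to 57.6 CPM in cKO, with 1 of 9 higher, and none was at 0. The 8 mural markers summed to 31.0 to 52.4 CPM in controls and 36.4 to 41.6 CPM in cKO, with 3 of 8 higher, and Acta2, Kcnj8, Vtn and Myh11 at 0 in at least 1 library. The part of these cells in the values of the basal lamina genes was not tested. The 8 skeletal muscle markers, a source of full-length dystrophin, summed to 10.3 to 17.5 CPM in controls and 7.23 to 24.5 CPM in cKO, with Des at 0 in every library. The 9 oligodendrocyte markers summed to 1522 to 3057 CPM in controls and 1017 to 2467 CPM in cKO, with 0 of 9 higher in cKO and none at 0, and their part in the values of the 9 genes was not tested.

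No other aquaporin exceeded 45 CPM in any library, a level reached by Aqp6. Of the 10 others on the list 5 were tested and 0 called by edgeR or limma-voom, and 2 were called by DESeq2, both lower. Aqp6 was at 45, 23.0, 7.25 and 14.1 CPM in the controls and 8.53, 8.21, 4.22 and 1.58 CPM in the cKO libraries (log2 fold change -1.98, edgeR adjusted p = 0.235). Aqp7, a channel for water and glycerol, was at 3.17, 4.51, 5.05 and 5.35 CPM in the controls and 1.33, 1.54, 1.65 and 1.63 CPM in the cKO libraries, without overlap (log2 fold change -1.55, edgeR adjusted p = 0.275). Aqp6 and Aqp7 were also the 2 with an unadjusted edgeR p under 0.05, against 9.81% of all genes. Aqp5 (-1.86) did not pass. Aqp9, the other aquaporin often reported in astrocytes, had a log2 fold change of 0.15, which turned sign without control S7 or cKO S8. Aqp11 had one of 0.055, which turned sign with limma-voom (-0.026), with Xist as a covariate (-0.056) and without control S7 or cKO S5. Aqp1, Aqp2, Aqp3, Aqp8 and Aqp12 had 6 reads at most in any library.

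The partners of Mlc1 and Hepacam, 9 of 9 tested, had 0 called by edgeR, DESeq2 or limma-voom and a median of -0.38. A single gene had an unadjusted edgeR p under 0.05, against 9.81% of all genes. This was Gprc5b, a G protein coupled receptor linked to Mlc1. It was at 284, 233, 135 and 147 CPM in the controls and 130, 137, 95.2 and 110 CPM in the cKO libraries (log2 fold change -0.75, edgeR adjusted p = 0.271). Those with the most reads were the gap junction genes Gja1 (-0.48) and Gjb6 (-0.30) and the receptor Gpr37l1 (0.32). Trpv4 (-2.57, but -0.61 without control S7) and Cav1 (-0.76, but -0.25 without control S7) had the widest differences with wide spread among controls, and none of these passed. Kcnj16, which encodes Kir5.1, the channel that pairs with Kir4.1, was at 155 to 218 CPM in controls and 103 to 226 CPM in cKO (log2 fold change -0.096, edgeR adjusted p = 0.930), with the other sign under library totals (0.043) and without control S1 or cKO S8.

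**Figure D5:**
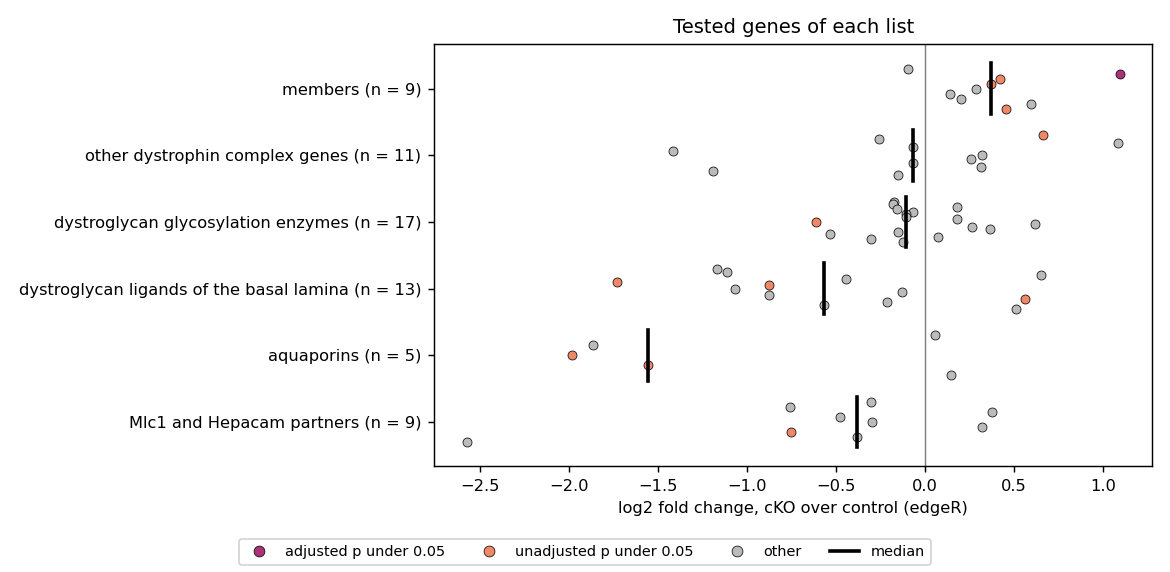
Log2 fold change, cKO over control, of every tested gene of the 9 examined and of the 5 lists, with the median of each list as a black bar. Aqp4, at 1.09, is the only gene past an adjusted p of 0.05, and the medians run from 0.37 for the 9 genes to -1.55 for the aquaporins.

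Genes were also ordered by how closely they matched the course of Aqp4. Likeness was taken as the root mean square difference between mean-centred log2 CPM over the 8 libraries. It covered 7599 genes with a mean of at least 10 CPM, with predicted genes and pseudogenes left out. As it uses the same libraries as the comparison, it is a description with no test. With so few partners among the 7599, a nearest 5 from outside the complex was likely beforehand and says nothing about the complex. The 5 nearest were Plxnb2 (0.155), a semaphorin receptor, Esrrg (0.186), an orphan nuclear receptor, Fbxo2 (0.199), a ubiquitin ligase subunit that recognises glycoproteins, Pla2g7 (0.202), a secreted phospholipase, and Hapln1 (0.212), a link protein of the hyaluronan matrix. Pla2g7 was at 783, 694, 496 and 482 CPM in the controls and 802, 1823, 1334 and 1378 CPM in the cKO libraries. Hapln1 passed (log2 fold change 1.19, edgeR adjusted p = 0.0344), but it did not pass in 6 of the 8 fits with 1 library left out: without control S1 (0.0898), S2 (0.105) or S6 (0.101) or cKO S4 (0.157), S5 (0.0655) or S8 (0.116). Nor did it pass in the 3 FPKM fits. The other 4 did not pass in the main edgeR fit, though with DESeq2 Plxnb2, Pla2g7 and Esrrg did. Plxnb2 and Pla2g7 each passed in 4 of 11 alternatives, DESeq2 included. The others were library totals (edgeR adjusted p = 0.0254 and 0.0344), at least 1 count in any library (0.0342 and 0.0299) and at least 10 counts in every library (0.0255 and 0.0394). With 1 library left out they passed in 1 of 8 fits, without cKO S3 (0.0397 and 0.0271). Of the 8 partners Dag1 came nearest, at rank 108, followed by Mlc1 at 633, Dmd at 811, Dtna at 1036, Hepacam at 1076, Utrn at 1710 and Agrn at 3791. Sntb1, whose mean of 7.05 CPM lies under the limit of 10 CPM, would stand at 2661.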

How the data were processed

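The genes and lists were chosen with earlier results of these data known. Per the submitters' processing notes, which give no role or order, the tools were FastQC 0.11.4, TopHat2 2.0.11, Bowtie2 2.2.3, HTSeq 0.6.1p1, DESeq2 1.14.1, Cufflinks 2.2.1 and Cuffnorm on GRCm38. The annotation release and strand setting are not given in the sources used here. Dmd overlaps 5 genes in the tables and Utrn overlaps 1, so the counts of both could be affected. Aqp4 and Dtna each overlap 1 annotated gene that is absent from the tables, whose reads could have been counted with theirs. Per the labels' protocols, the NuGEN RNA-Seq V2 kit made the cDNA.

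The authors deposited raw counts per gene and library. Summary lines naming no gene held 56.4% to 61.7% of all counts recorded per library and entered neither library sizes nor tests. They include alignments that were not unique, so these need not be shares of reads. Mitochondrial rRNA, summed with the nuclear genes Rn7sk and Rn45s where present, was 23.8% to 32.6% of gene reads. The authors also deposited FPKM, whose columns follow the counts of the library they name in 3 of 8 cases and a library of their own group in all 8 (10840 genes), so FPKM was used by group only. The authors' deposited comparison gives group mean scaled counts (a signal), log2 fold changes, their standard error and Wald statistic (scores), and p-values.

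The main test on counts was edgeR 4.0.16 (its quasi-likelihood test, TMM, filterByExpr; R 4.3.3), 4 control against 4 cKO libraries with no covariate, adjusted by Benjamini-Hochberg over 14757 genes at 0.05. Ratios to Aqp4 were tested with limma 3.58.1 (trend) on log2 CPM with a prior count of 2. FPKM was tested with limma at pseudocounts of 1 and 0.1 and a mean of at least 0.5 FPKM. DESeq2 1.42.0 and limma-voom were alternatives. The scripts were tested on simulated data. Lengths implied by CPM over FPKM were scaled on 417 coding genes with a single transcript, whose relative values had quartiles of 0.909 and 1.07. Coordinates are from GENCODE mouse annotation on GRCm38. The p-values measure the spread between these libraries. From each list the text names the 3 tested genes with the largest absolute log2 fold change among those with a mean of at least 1 CPM, the 3 with the highest mean CPM and any called gene, beside the 9 genes, Kcnj10, Kcnj16 and the 5 genes most like Aqp4. Some genes that meet this rule are not reported here. Lists not printed in the report summed as follows, in controls and cKO: OPC markers 600 to 1491 and 661 to 817 CPM, microglia 11.7 to 30.2 and 7.01 to 50.3 CPM, neurons 35.4 to 80.4 and 22.4 to 38.8 CPM, ependymal cells 7.16 to 29.8 and 8.65 to 23.7 CPM, Schwann cells 141 to 231 and 140 to 233 CPM.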

Additional observations from a re-analysis of the deposited data

How the results depend on the processing

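Of 961 single-gene values recomputed under the alternatives, 893 kept their direction and their side of the threshold. The log2 fold change of Aqp4 kept its direction in all of them and was 1.13 with adjusted p of 0.159, 0.174 and 0.277 in the 3 limma fits on FPKM (pseudocount 1, pseudocount 0.1 and no filter), and 0.98 to 1.20 when 1 library was left out. The number of the 9 genes called was 0 in those 3 FPKM fits and 0 to 1 with 1 library left out, and 1 in all other alternatives. The count of all genes called was 47, and became 87 and 84 with the looser and the stricter count filter, 384 with DESeq2, 28 with Xist as a covariate, 9, 11 and 7 on FPKM, and 4 to 45 with 1 library left out (4 without cKO S4). Leaving out mitochondrial rRNA, an alternative chosen after seeing the data, gave 45 calls, Aqp4 included. The other dystrophin complex list had 1 call with DESeq2. The 6 ratios to Aqp4 that passed became 5 to 7 over the alternatives. The other 8 genes gave 152 values, of which 4 turned sign, all for Agrn: 0.00897 with library totals and 0.021, 0.022 and 0.021 on FPKM. Other signs turned for Sgcb (0.043 library totals, 0.016 Xist), Aqp11 (-0.026 limma-voom, -0.056 Xist) and Kcnj16 (0.043 library totals). With 1 library left out the sign also turned within the ranges of Sntg1 (-1.76 to 0.50), Sgcb (-0.19 to 0.13), Pomt1 (-0.052 to 0.22), Lamc1 (-0.35 to 0.070), Aqp9 (-0.073 to 0.37), Aqp11 (-0.29 to 0.24) and Kcnj16 (-0.26 to 0.083). For each of these the cause was not tested. No paired analysis was possible because the labels name no animals, batches or pairs, so whether libraries were paired is not known. Sntb1 rests on 51 to 191 reads per library, fewer than the other 8 genes. In groups of 4, none of 22 checked for a far library stood out.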
